A study of Mus musculus with 16 samples.

Results

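Macrophage and monocyte transcripts were measured in RNA-seq libraries that were sorted as endothelial cells (ECs) of mouse bone. The genes were C1qa, C1qb, C1qc, Csf1r, Cd68, Cd14, Fcgr1 and Mpeg1, which are known for their expression in these cells. They were found by symbol in the tables of the metaphyseal and marrow ECs and of the Lats2 libraries, as 8 of 38926 gene names, and by Ensembl identifier in the Yap1/Taz libraries, as 8 of 21603 identifiers. Levels are given in FPKM, in which a gene's sequenced fragments are divided by its length and by the size of the library, so that levels of different genes of one library can be set side by side.

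The 16 libraries, all from mice on a C57BL/6 background, formed 3 comparisons. First, 3 libraries of metaphyseal ECs (mpECs) and 3 of ECs from the marrow of the diaphysis (bmECs) came from 3-week-old Cdh5-mT/nG reporter mice labelled wild type, sorted for both reporter colours. Second, 3 Yap1flx/flx; Wwtr1flx/flx control libraries without Cdh5CreERT2 were set against 3 with it, labelled ECKO, all at postnatal day 21. For the last comparison, 2 Lats2flx/flx control libraries without Cdh5CreERT2 were set against 2 with it, labelled cKO, with no age in the labels and 3 weeks in the methods. Cdh5CreERT2 drives a tamoxifen-dependent recombinase from an endothelial promoter, so that floxed alleles are meant to be lost in ECs and kept in blood and stromal cells. Yap1/Taz mutants analysed at postnatal day 21 had received tamoxifen about a week after birth, and the course for the Lats2 libraries is not given in the sources used here. Sorting of bone ECs used antibodies to CD31 and Emcn and DAPI to leave out dead cells, and no step that removes leukocytes is stated in the sources used here. The labels do not say whether a library was 1 animal or several, so p-values measure the spread between these libraries.

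Macrophages of bone marrow clear dying cells and the expelled nuclei of red cell precursors, and they share an origin with osteoclasts. Several of the genes belong to their sensing of debris and microbes. C1qa, C1qb and C1qc encode the chains of C1q, the recognition part of the classical complement pathway, which macrophages make and secrete. Csf1r is the receptor for the growth factors Csf1 and Il34, on which most macrophages depend. Cd14 passes bacterial lipopolysaccharide to Tlr4 and Ly96, Fcgr1 is the high-affinity receptor for IgG, Cd68 is a glycoprotein of the endosomal and lysosomal membrane, and Mpeg1 encodes perforin-2, a pore-forming protein.

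In the GRCm38 annotation the C1q genes lie side by side on chromosome 4, between 136880129 and 136898803, all on the minus strand. C1qb spans 136880129 to 136886187, C1qc 136889804 to 136893065 and C1qa 136895917 to 136898803, with 3 exons each. Cd68 lies on chromosome 11 at 69664213 to 69666153 and Fcgr1 on chromosome 3 at 96282909 to 96293969, both on the minus strand. Mpeg1 lies on chromosome 19 at 12460779 to 12465283 on the plus strand. The exons of Csf1r share 15.1% of their bases with Hmgxb3 on the opposite strand, and whether counting used strand is not given in the sources used here. What share of the Csf1r values could come from Hmgxb3 reads is therefore not known, and the share of bases does not bound it. No exon of the other 7 genes overlaps another annotated gene.

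The RefSeq promoter table of GRCm38.p6 held 5 of the 8 genes. In the 250 bases before the start, the letters GAGGAA, the core of the PU box that the myeloid factor Spi1 is known to bind, were searched for on both strands. They were found before C1qb, C1qc, Cd68 and Fcgr1, and not in the window before Mpeg1. Of all 32851 promoters in the table, 23.3% held these letters in the same window, and a match is a description of the letters and not of binding. The windows of C1qb (chr4:136886201-136886450), Cd68 (chr11:69666171-69666420) and Fcgr1 (chr3:96293970-96294219), all on the minus strand and read along the transcript, are shown because they hold a match and lie wholly outside the annotated gene. Capitals mark the match, which in Fcgr1 is on the opposite strand and so reads TTCCTC.
C1qb: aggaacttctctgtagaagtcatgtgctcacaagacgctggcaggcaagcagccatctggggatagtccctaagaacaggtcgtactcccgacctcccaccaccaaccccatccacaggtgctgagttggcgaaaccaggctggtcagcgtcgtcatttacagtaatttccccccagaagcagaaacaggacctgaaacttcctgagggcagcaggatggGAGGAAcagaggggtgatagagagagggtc
Cd68: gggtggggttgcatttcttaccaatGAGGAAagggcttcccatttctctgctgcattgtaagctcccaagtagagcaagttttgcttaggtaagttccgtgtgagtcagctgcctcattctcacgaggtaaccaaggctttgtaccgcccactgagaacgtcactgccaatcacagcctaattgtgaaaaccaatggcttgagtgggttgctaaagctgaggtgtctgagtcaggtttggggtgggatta
Fcgr1: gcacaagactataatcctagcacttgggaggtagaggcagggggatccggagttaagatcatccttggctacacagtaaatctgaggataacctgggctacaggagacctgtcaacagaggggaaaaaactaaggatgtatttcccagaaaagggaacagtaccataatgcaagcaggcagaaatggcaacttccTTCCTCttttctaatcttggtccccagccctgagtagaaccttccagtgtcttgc
The match began 30 bases before the start in C1qb, 225 bases before it in Cd68 and 55 bases before it in Fcgr1.

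Reads recovered from the FPKM values numbered 11112882 to 14742018 per library for mpECs and bmECs, 4885972 to 7166314 for the Yap1/Taz libraries and 4729920 to 7067345 for the Lats2 libraries. The labelled cell type was checked first. The 8 endothelial markers Cdh5, Pecam1, Emcn, Kdr, Tek, Tie1, Erg and Egfl7 summed to 975 to 1227 FPKM in mpECs and bmECs, 488 to 648 FPKM in the Yap1/Taz libraries and 1559 to 1734 FPKM in the Lats2 libraries. The leukocyte markers Ptprc, Cd53, Laptm5, Coro1a and Rac2 were detected beside them in every table and summed to 118 to 291, 560 to 594 and 21.7 to 108 FPKM. The targeted genes were checked next. Yap1 was at 1.23 ± 0.339 FPKM in Yap1/Taz controls and 1.15 ± 0.245 FPKM in the libraries labelled ECKO (SD, n = 3 each), with a log2 difference of -0.04 (adjusted p = 0.934). Wwtr1, which encodes Taz, was higher in the libraries labelled ECKO, at 18.1 ± 2.48 FPKM against 10.1 ± 0.240 FPKM (SD, n = 3 each, log2 difference 0.78, adjusted p = 0.0272), which goes against the label. Gene-level values do not show which exons the reads came from, and the group is called by its label below. Lats2 was at 23.7 ± 0.471 FPKM in its controls and 19.2 ± 0.0108 FPKM in cKO libraries (SD, n = 2 each), a log2 difference of -0.29 that did not pass the threshold (adjusted p = 0.125). The paper itself reports significantly lower Yap1 and Wwtr1 transcripts in bone ECs of Yap1/Taz mutants, and lower Lats2 transcripts in those of Lats2 mutants. It also shows weaker Yap1 immunostaining in vessels of Yap1/Taz mutants.

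The macrophage and monocyte genes stood at very different levels in the 3 tables, and C1qa differed most between their medians. C1qa was at 4.63 to 10.5 FPKM in mpECs and bmECs, 0.647 to 7.39 FPKM in the Lats2 libraries and 360 to 524 FPKM in the Yap1/Taz libraries. The tables were normalized separately, so these levels are a description with no test. Relative to Cdh5, the cadherin of endothelial junctions, in the same library, C1qa was at 2.28% to 7.07% in mpECs and bmECs, 0.242% to 2.68% in the Lats2 libraries and 266% to 517% in the Yap1/Taz libraries. The FPKM of C1qa exceeded that of Cdh5 in all 6 Yap1/Taz libraries and in none of the other 10. Which cells the C1qa reads came from was not tested. In bulk libraries, the number of cells that hold a transcript and its level per cell cannot be told apart.

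Csf1r, Cd68, Mpeg1 and Fcgr1 were also highest in the Yap1/Taz table, and Cd14 was not. Csf1r was at 0.952 to 3.23 FPKM in mpECs and bmECs, 3.08 to 9.49 FPKM in the Lats2 libraries and 34.3 to 59.96 FPKM in the Yap1/Taz libraries. Cd68 was at 15.2 to 27.8, 3.04 to 10.96 and 74.6 to 116 FPKM in the same tables. Mpeg1 was at 8.55 to 12.4, 0 to 1.48 and 21.6 to 45.7 FPKM, and Fcgr1 at 0.581 to 1.22, 0 to 0.409 and 5.21 to 10.5 FPKM. For each of these 4 genes the Yap1/Taz libraries held the highest levels, without overlap with the other tables, while Csf1r was lowest in mpECs and bmECs, overlapping the Lats2 libraries, and the other 3 were lowest in the Lats2 libraries without overlap. Cd14 went another way, at 16.2 to 95.3 FPKM in mpECs and bmECs, 30.3 to 67.5 FPKM in the Lats2 libraries and 15.4 to 33.1 FPKM in the Yap1/Taz libraries. Cd14 was the most abundant of the 8 genes in all 6 mpEC and bmEC libraries and in all 4 Lats2 libraries. In the Yap1/Taz table it ranked 7 of 8 in 5 libraries and 6 of 8 in ECKO replicate 3.

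**Figure D1:**
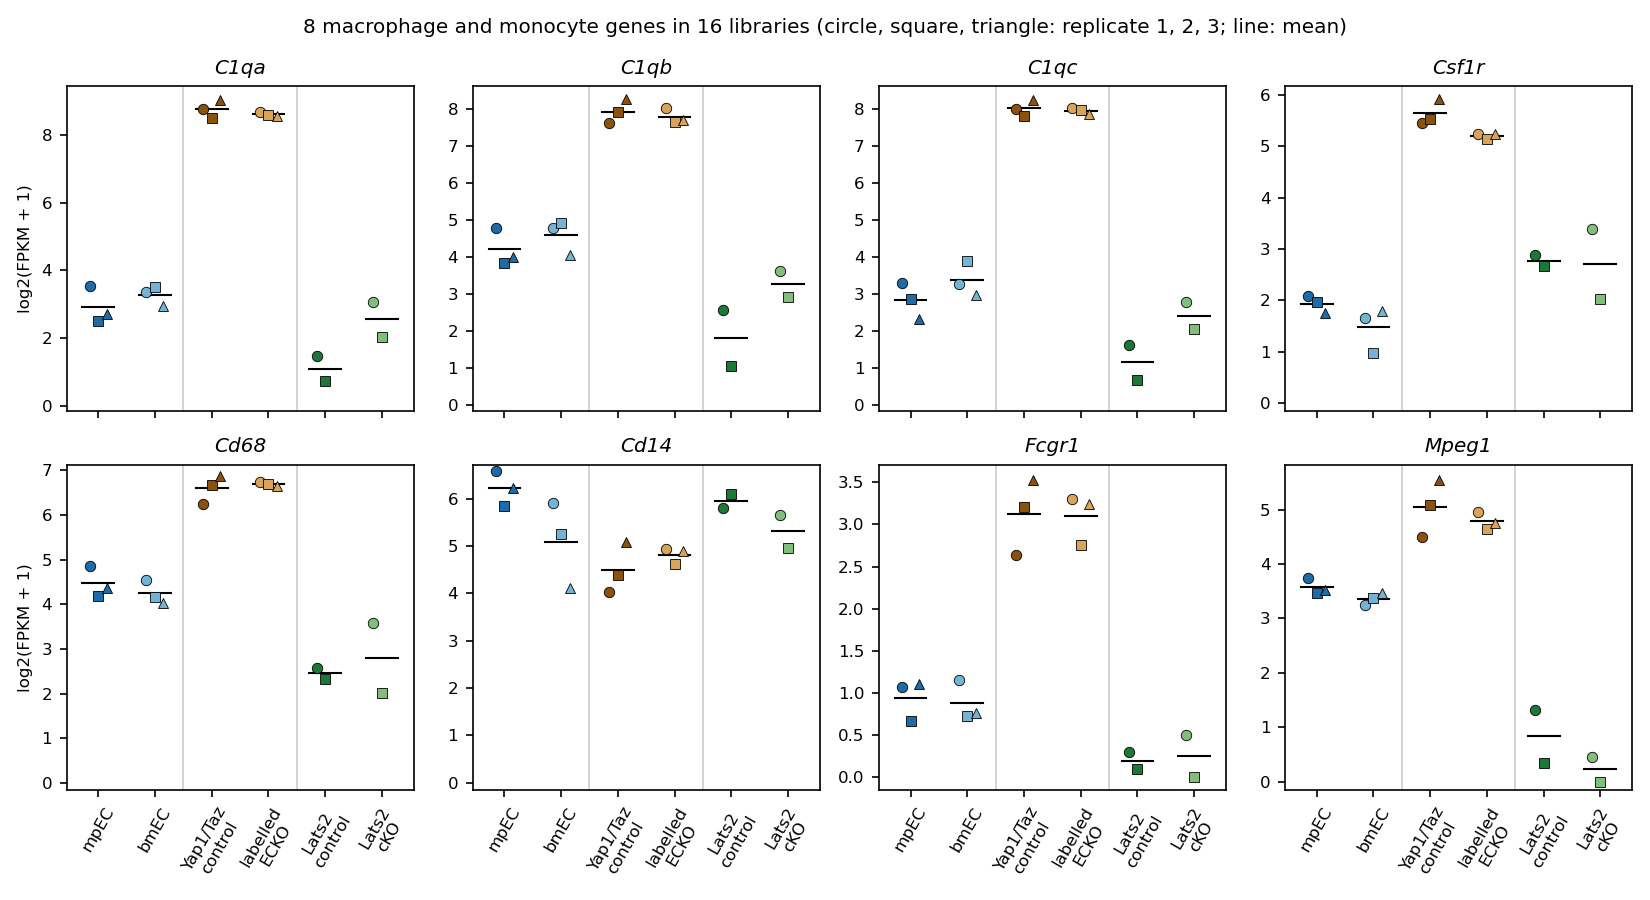
Levels of the 8 genes as log2(FPKM + 1) on the vertical axis, in the 6 groups on the horizontal axis, with 1 point per library, a line at the group mean and grey lines between the separately normalized tables. The C1q genes, Csf1r, Cd68, Fcgr1 and Mpeg1 are highest in the Yap1/Taz libraries, and Cd14 is not.

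The 3 chains of C1q also stood in another ratio in the Yap1/Taz libraries. FPKM of C1qb was 2.33 to 2.87 times that of C1qa in mpECs and bmECs, 1.55 to 2.87 times in the Lats2 libraries and 0.447 to 0.667 times in the Yap1/Taz libraries. On recovered reads, C1qa held 25.0% to 29.1% of the C1qa and C1qb reads in mpECs and bmECs. It held 58.9% to 68.1% in the Yap1/Taz libraries, where the lowest share had an exact 95% binomial interval of 57.4% to 60.3% and the highest one of 66.5% to 69.7%. In the Lats2 libraries the shares were 25.0% to 38.2% from 11 to 76 reads, with an interval of 10.9% to 69.2% in control replicate 2, so that these libraries fix the ratio poorly. Intervals cover counting error only. C1qc held 16.2% to 29.9% of the summed C1q FPKM in every library of the 3 tables. The tables list different numbers of features and may rest on different gene models, and the part of gene models in this ratio was not tested.

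**Figure D2:**
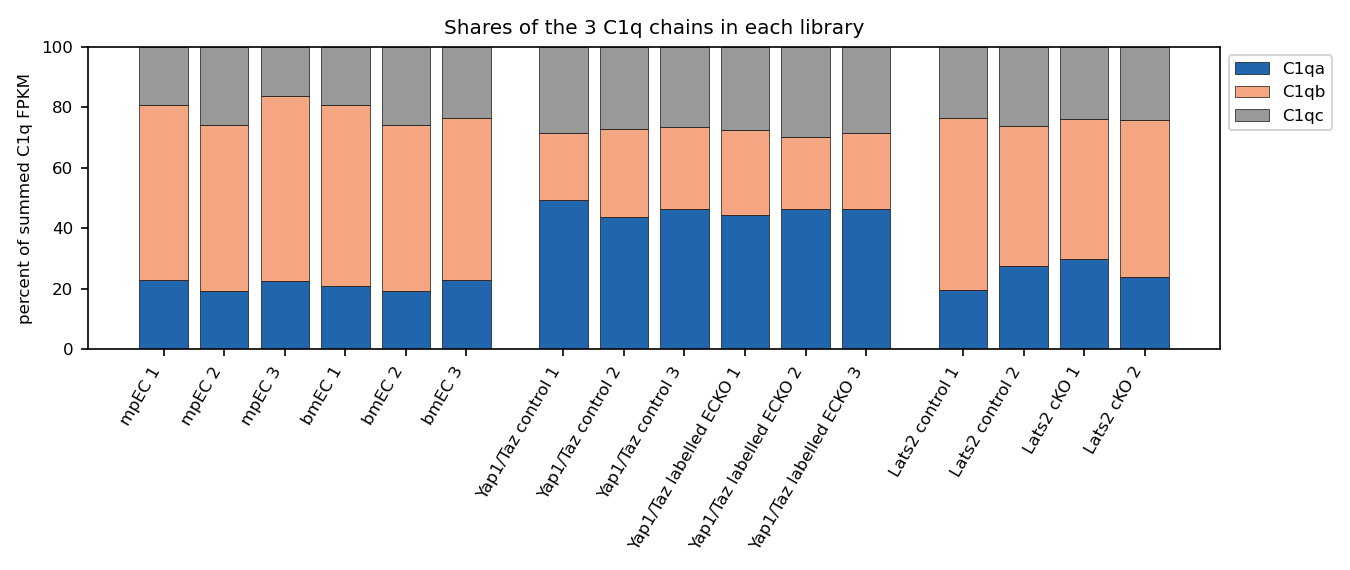
Each bar is 1 library and stacks the percent of the summed FPKM of C1qa, C1qb and C1qc that each chain held, on an axis from 0 to 100%. C1qb holds the largest share in mpECs, bmECs and the Lats2 libraries, and C1qa holds it in the 6 Yap1/Taz libraries.

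The first comparison asked how ECs of the metaphysis and of the marrow cavity differ. None of the 7 genes tested passed the threshold, an adjusted p under 0.05 with limma on log2(FPKM + 1), while 23.5% of all 11422 genes tested did, 13.0% higher and 10.5% lower in bmECs. Fcgr1 was not tested because its mean was under 1 FPKM. Before adjustment 1 of the 7, Cd14, had a p under 0.05, as did 4122 of all 11422 genes tested. With limma-voom on recovered reads 2 were called, Cd14 and Mpeg1, both lower. That fit scaled reads by library size alone. It called 890 genes higher and 2414 lower in all, and its median over all genes was -0.20. The log2 difference of Mpeg1 in it was -0.43. With limma on log2(FPKM + 1) the median log2 difference, bmECs minus mpECs, was -0.21 over the 7 genes and -0.00068 over all genes tested.

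The C1q chains had higher means in bmECs, but the groups overlapped for each of them. C1qa was at 10.5, 4.63 and 5.54 FPKM in mpEC replicates 1 to 3 and 9.35, 10.3 and 6.70 FPKM in bmEC replicates 1 to 3. C1qb was at 26.6, 13.3 and 15.1 FPKM in mpECs and 26.7, 29.4 and 15.6 FPKM in bmECs. In both genes mpEC replicate 1 was about as high as the higher bmEC libraries, and bmEC replicate 3 was nearer to the other mpEC libraries. C1qc was at 8.84, 6.23 and 3.9996 FPKM against 8.56, 13.9 and 6.86 FPKM. The log2 differences were 0.36 ± 0.27 for C1qa, 0.38 ± 0.29 for C1qb and 0.55 ± 0.29 for C1qc (± SE), with limma adjusted p-values of 0.372, 0.394 and 0.217. Without mpEC replicate 1 the difference of C1qa was 0.67 and passed the threshold (adjusted p = 0.0412), and without mpEC replicate 2 it was 0.15 (adjusted p = 0.733).

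Cd14, the lipopolysaccharide co-receptor, had the widest gap of the 8 genes, in the other direction. It was at 95.3, 56.7 and 74.02 FPKM in mpECs and 59.1, 37.4 and 16.2 FPKM in bmECs. Only bmEC replicate 1 reached into the mpEC range, just above mpEC replicate 2. The log2 difference was -1.13 ± 0.41 (SE), with a 95% interval of -2.08 to -0.18 and an adjusted p of 0.0864. The call changed without bmEC replicate 1, where the difference was -1.54 (adjusted p = 0.0246), and with limma-voom on recovered reads, where it was -1.42 (adjusted p = 0.0181). Without bmEC replicate 3 the difference was -0.64 (adjusted p = 0.136).

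Csf1r, Cd68 and Mpeg1 had lower means in bmECs. Csf1r was at 3.23, 2.89 and 2.36 FPKM in mpECs and 2.16, 0.952 and 2.47 FPKM in bmECs, a log2 difference of -0.46 ± 0.22 (SE, adjusted p = 0.186). Mpeg1 was at 12.4, 10.1 and 10.5 FPKM in mpECs and 8.55, 9.34 and 10.03 FPKM in bmECs, a log2 difference of -0.21 ± 0.11 (SE, adjusted p = 0.203). Mpeg1 was the 1 gene of the 8 whose groups did not overlap, by a narrow margin, and 41.3% of all genes tested did not overlap. Cd68 was at 17.3 to 27.8 FPKM in mpECs and 15.2 to 22.4 FPKM in bmECs, and Fcgr1 at 0.581 to 1.15 and 0.653 to 1.22 FPKM, both overlapping.

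Markers of other cells also varied from library to library. In mpEC replicate 1, 7 of the 8 genes were the highest of the mpECs. The neutrophil markers S100a8, S100a9, Ltf, Camp, Ngp, Mpo, Elane and Retnlg were all detected and summed to 28511 FPKM in that library and to 11956 and 18496 FPKM in mpEC replicates 2 and 3. In bmEC replicates 1 to 3 they summed to 14143, 9726 and 10108 FPKM. The 5 leukocyte markers summed to 291 FPKM in mpEC replicate 1, against 155 to 174 FPKM in the other mpECs. In bmEC replicates 1 to 3 they summed to 171, 118 and 150 FPKM. These 3 libraries were the highest of the bmECs for 3, 3 and 2 of the 8 genes. All 3 C1q chains were highest in bmEC replicate 2, where the leukocyte and neutrophil sums were lowest. The osteoblast markers summed to 215 to 756 FPKM in mpECs and 42.8 to 56.2 FPKM in bmECs, with 3 of 4 tested lower in bmECs. The part of these cells in the levels of the 8 genes was not tested.

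The genes that work with them split. Of 10 proteases, inhibitors and receptors of C1q, 5 were tested and 3 were higher in bmECs. These were C1ra, a protease that C1q activates (1.06 ± 0.346 to 2.98 ± 0.552 FPKM, SD, n = 3 each, adjusted p = 0.00579), Serping1, the C1 inhibitor (log2 difference 1.49, adjusted p = 0.00379), and Calr, a chaperone that can bind C1q on dying cells (0.32, adjusted p = 0.0446). Of 7 Fc receptor partners, 2 were higher and 2 lower. Fcer1g, the signalling chain of Fcgr1, fell from 410 ± 63.6 to 248 ± 39.5 FPKM (SD, n = 3 each, log2 difference -0.73, adjusted p = 0.00963), and Fcgr4, an activating IgG receptor, also fell (-0.85, adjusted p = 0.0394). Fcgr2b, the inhibitory IgG receptor (2.15, adjusted p = 0.0051), and Fcgrt, the neonatal Fc receptor (0.95, adjusted p = 0.000537), rose, and both are known from endothelium as well as from macrophages. The call of Calr was kept in 2 and that of Fcgr4 in 1 of the 6 fits that left out a library, with adjusted p-values of up to 0.155 and 0.113.

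Among the Toll-like receptor partners of Cd14, 4 of 8 tested genes were higher in bmECs and none was lower. Ly96, which binds lipopolysaccharide together with Tlr4, rose from 122 ± 11.1 to 301 ± 10.1 FPKM (SD, n = 3 each, log2 difference 1.29, adjusted p = 7.57e-05), so that its change had the opposite sign to the value of Cd14. The adaptor Myd88 (0.57, adjusted p = 0.00555), the kinase Irak4 (0.68, adjusted p = 0.00119) and Tlr6 (0.61, adjusted p = 0.0115) rose too. Tlr4 itself differed by 0.24 (adjusted p = 0.256). Of 12 ligands and signalling genes of Csf1r and related receptors, 11 were tested and 4 rose, namely Csf2rb (0.91), Csf2rb2 (1.41), Cebpa (0.86) and Ets2 (0.40). Ets2 passed in 1 of the 6 fits that left out a library, with adjusted p-values of up to 0.0916. Csf1 differed by 0.40 (adjusted p = 0.0851) and Spi1, the myeloid transcription factor, by -0.45 (adjusted p = 0.223).

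A list of 35 other macrophage and monocyte genes showed both directions, with 9 of 26 tested genes higher in bmECs, 3 lower and a median of 0.19. Among the most abundant, the mannose receptor Mrc1 rose from 98.8 ± 14.6 to 331 ± 27.2 FPKM (SD, n = 3 each, log2 difference 1.74, adjusted p = 7.57e-05). Lysozyme Lyz2 fell by 0.82 (adjusted p = 0.0312), and the monocyte surface gene Ly6c2 differed by -0.39 (adjusted p = 0.362). The other genes that fell, Cx3cr1 and Clec7a, are named here after their values were seen. Osteoclast genes were lower in bmECs for all 3 tested, among them Ctsk (-2.63, adjusted p = 0.000127) and Acp5 (-0.78, adjusted p = 0.024), while the osteoclast list summed to 42.4 to 77.6 FPKM in mpECs and 24.1 to 28.01 FPKM in bmECs. Cathepsins and other lysosomal genes, with which Cd68 shares its place in the cell, were higher for 5 of 12 tested, led in level by Ctsl (421 ± 76.1 to 2243 ± 76.3 FPKM, SD, n = 3 each, log2 difference 2.42, adjusted p = 3.23e-05).

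**Figure D3:**
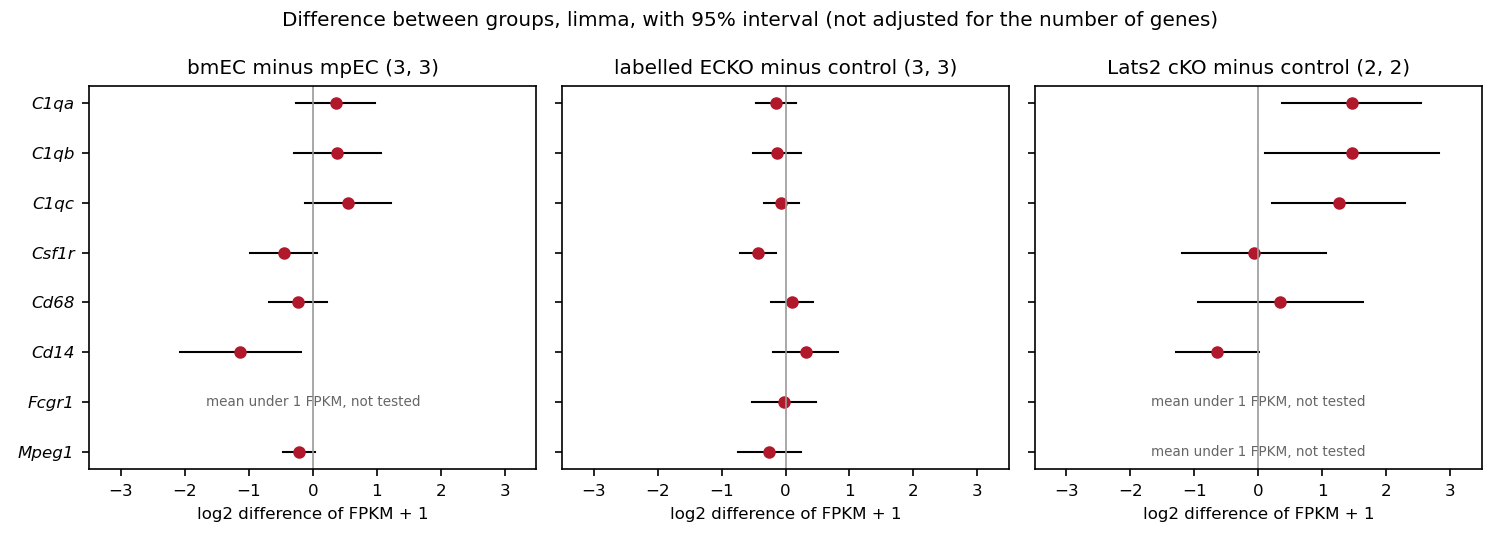
Points give the log2 difference of FPKM + 1 between the groups of each comparison, and lines the 95% interval from limma, not adjusted for the number of genes. No adjusted p in the 3 panels was under 0.05, the lowest being 0.066 for C1qa in the Lats2 panel.

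The second comparison asked what follows the loss of Yap1 and Taz in ECs. None of the 8 genes, all of them tested, passed the threshold, where 1.31% of all 11320 genes did, 0.883% higher and 0.424% lower in the libraries labelled ECKO. Before adjustment 1 of the 8, Csf1r, had a p under 0.05, as did 2023 of all 11320 genes, and limma-voom on recovered reads called 0. The median log2 difference, libraries labelled ECKO minus controls, was -0.10 over the 8 genes and -0.0047 over all genes.

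Csf1r, the receptor on which macrophages depend, was lower in the libraries labelled ECKO without passing the adjusted threshold. It was at 43.0, 45.6 and 59.96 FPKM in control replicates 1 to 3 and 37.05, 34.3 and 36.6 FPKM in ECKO replicates 1 to 3. Every control lay above every library labelled ECKO, and this was the only one of the 8 genes without overlap, where 23.6% of all genes had none. The log2 difference was -0.44 ± 0.13 (SE), with a 95% interval of -0.72 to -0.15 and an adjusted p of 0.114. Over the alternatives tried it ranged from -0.53 to -0.29, with adjusted p-values of 0.0514 to 0.359.

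The C1q chains differed little. C1qa was at 438, 360 and 524 FPKM in controls and 412, 387 and 380 FPKM in the libraries labelled ECKO, a log2 difference of -0.15 with a 95% interval of -0.46 to 0.16. C1qb was at 196, 240 and 306 FPKM against 262, 199 and 208 FPKM, and C1qc at 253, 225 and 301 FPKM against 257, 250.5 and 232 FPKM. All ECKO values of C1qa and C1qc lay inside the control range, and the intervals were -0.51 to 0.24 for C1qb and -0.34 to 0.21 for C1qc.

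Cd68, Cd14, Fcgr1 and Mpeg1 overlapped between the groups. Cd14 was at 15.4, 19.96 and 33.1 FPKM in controls and 29.7, 23.6 and 28.8 FPKM in the libraries labelled ECKO, a log2 difference of 0.31 ± 0.22 (SE, adjusted p = 0.505). Mpeg1 was at 21.6, 32.9 and 45.7 FPKM against 30.1, 24.0 and 26.2 FPKM (-0.25, adjusted p = 0.591). Control replicate 3 was the highest of the 6 libraries for all 8 genes, and control replicate 1 the lowest for 5 of them. Without control replicate 3 the median over the 8 genes was 0.04, and C1qb (0.03), C1qc (0.05) and Fcgr1 (0.18) changed sign, none of them past the threshold. The summed level of the other macrophage and monocyte genes was 2535 FPKM in control replicate 3, against 1850 and 1942 FPKM in the other controls and 1845 to 1929 FPKM in the libraries labelled ECKO.

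Few genes of the partner lists were called. None of the 31 tested genes of the other macrophage and monocyte list was called (median -0.15), and the most abundant of them, Lyz2 (log2 difference -0.36), the ficolin Fcna (-0.15), the cathepsin Ctss (-0.07) and Sirpa (0.09), had adjusted p-values of 0.239 or more. Of the Fc receptor partners, C1q partners and Toll-like receptor partners, none of 7, 5 and 11 tested was called. The only gene called in these lists was Grb2, an adaptor of receptor tyrosine kinases including Csf1r, which fell from 22.8 ± 3.58 to 13.1 ± 1.16 FPKM (SD, n = 3 each, log2 difference -0.75, adjusted p = 0.0347). Grb2 passed in 2 of the 6 fits that left out a library, and its adjusted p was 0.184 without ECKO replicate 2, 0.144 without ECKO replicate 3, 0.0752 without control replicate 2 and 0.0737 without control replicate 3. With all 6 libraries it also missed the threshold with no filter (0.0846), no trend (0.0712) and the replicate block (0.0753). It passed with the pseudocount of 0.1, the filter of 5 FPKM, both scalings and limma-voom, at adjusted p-values of 0.0154 to 0.0403. Spi1 was at 37.5 ± 3.54 and 50.3 ± 3.25 FPKM (SD, n = 3 each, 0.42, adjusted p = 0.0778). The leukocyte markers summed to 560 to 580 FPKM in controls and 576 to 594 FPKM in the libraries labelled ECKO, and 0 of 5 were called. The endothelial markers summed to 488 to 498 FPKM in controls and 563 to 648 FPKM in the libraries labelled ECKO, with 0 of 8 called. For 7 of these 8 the groups did not overlap, where 23.6% of all genes had no overlap, and their median log2 difference was 0.29. The B cell markers summed to 255 to 308 and 213 to 218 FPKM, with 0 of 6 called and 3 without overlap. The part of these cells in the values of the 8 genes was not tested.

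The third comparison asked what follows the loss of Lats2, the kinase that restrains Yap1 and Taz. None of the 6 genes tested passed the threshold, where 21.8% of all 12453 genes did, 11.8% higher and 9.98% lower in cKO libraries. Fcgr1 and Mpeg1 were not tested because their means were under 1 FPKM. Before adjustment 3 of the 6 had a p under 0.05, namely the C1q chains, as did 4805 of all 12453 genes. With limma-voom on recovered reads 1 was called, Cd14, as lower, in a fit that called 1273 genes higher and 2045 lower in all. The groups did not overlap for 4 of the 8 genes, C1qa, C1qb, C1qc and Cd14, but with 2 libraries a group 68.2% of all genes tested did not overlap. The median log2 difference, cKO minus control, was 0.80 over the 6 genes and -0.0033 over all genes.

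The 3 C1q chains were higher in both cKO libraries than in both controls. C1qa was at 1.74 and 0.647 FPKM in controls and 7.39 and 3.09 FPKM in cKO libraries. C1qb was at 4.99 and 1.08 FPKM against 11.4 and 6.65 FPKM, and C1qc at 2.08 and 0.609 FPKM against 5.90 and 3.12 FPKM. Replicate 1 was the higher library of each group for every chain. These values rest on few reads, with 9 and 4 recovered reads of C1qa in controls and 29 and 16 in cKO libraries. The log2 differences were 1.46 ± 0.43 for C1qa, 1.47 ± 0.54 for C1qb and 1.26 ± 0.41 for C1qc (± SE), with limma adjusted p-values of 0.066, 0.110 and 0.0842. Leaving out a library moved the difference of C1qb between 0.70 and 2.23, the lower value coming without control replicate 2.

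Cd14 had the opposite sign. It was at 55.1 and 67.5 FPKM in controls and 49.6 and 30.3 FPKM in cKO libraries, which do not overlap by a margin smaller than the spread within either group. The log2 difference was -0.64 ± 0.25 (SE, adjusted p = 0.132), and without cKO replicate 1 it was -0.99 (adjusted p = 0.0414), while without cKO replicate 2 it was -0.29 (adjusted p = 0.307). Csf1r was at 6.42 and 5.33 FPKM in controls and 9.49 and 3.08 FPKM in cKO libraries, and Cd68 at 4.96 and 4.01 FPKM against 10.96 and 3.04 FPKM. In both genes the cKO libraries lay on either side of the controls, and the sign of the difference turned with the library left out. Mpeg1 was at 1.48 and 0.271 FPKM against 0.367 FPKM and a listed 0, and Fcgr1 at 0.233 and 0.0649 FPKM against 0.409 FPKM and a listed 0. The cKO replicate 1 library was the highest of the 4 for 6 of the 8 genes, and cKO replicate 2 the lowest for 5.

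Many genes listed with macrophages and monocytes fell in the cKO libraries. Among those named below, Mrc1, Cebpa, Csf2rb and Csf2rb2 were called higher in bmECs than in mpECs. Lyz2 was called lower there, and Spi1 was not called. The result of Sirpa, also named below, for bmECs against mpECs is not given here. The paper reports that genes typical of bmECs were strongly reduced in Lats2 mutants. Which cells these transcripts came from was not tested. Of the 23 other macrophage and monocyte genes tested, 9 were lower in cKO libraries, none was higher, and the median was -1.07. Among the most abundant that fell were Mrc1 (144 ± 10.2 to 18.8 ± 9.09 FPKM, SD, n = 2 each, log2 difference -2.95, adjusted p = 0.00986) and Sirpa (-2.60, adjusted p = 0.011). Lyz2 differed by -1.95 without passing the threshold (adjusted p = 0.106). Spi1 fell from 6.66 ± 1.13 to 2.11 ± 1.19 FPKM (SD, n = 2 each, log2 difference -1.35, adjusted p = 0.0357). With it fell Cebpa (-1.29), Csf2rb (-1.21) and Csf2rb2 (-1.30), the 4 genes called of 10 tested in the Csf1r list. None of these calls stands without either control library, since 0 genes of the whole table then passed in limma, with 2724 and 2879 genes at an unadjusted p under 0.05.

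Some partners of the other receptors fell in the same libraries. Of those named next as lower, Fcgr2b, Fcgrt, Ly96 and Irak4 were called higher in bmECs than in mpECs, and Lbp was not. Fcgr2b (-1.91, adjusted p = 0.00986) and Fcgrt (-1.61, adjusted p = 0.0102) were the 2 called of 7 Fc receptor partners, both lower. Ly96 (-1.26, adjusted p = 0.0101), the lipopolysaccharide carrier Lbp (-1.15, adjusted p = 0.0132) and Irak4 (-0.68, adjusted p = 0.0248) were the 3 called of 9 Toll-like receptor partners tested, in the direction of Cd14. Of 5 C1q partners tested, 2 rose, and these were Cd93 (84.4 ± 4.55 to 153 ± 1.38 FPKM, SD, n = 2 each, log2 difference 0.86, adjusted p = 0.0128), a surface protein of endothelium and myeloid cells once described as a C1q receptor, and C1qbp (0.71, adjusted p = 0.0175), a mainly mitochondrial protein named for binding C1q. Without cKO replicate 2, Spi1 (adjusted p = 0.0792), Csf2rb (0.0517), Irak4 (0.074), Lbp (0.0539) and C1qbp (0.0529) also missed the threshold.

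Markers of other blood cells and of stroma also moved in this comparison. The leukocyte markers summed to 89.5 to 108 FPKM in controls and 21.7 to 48.3 FPKM in cKO libraries, with 3 of 5 called lower and none higher. The neutrophil markers summed to 2021 to 2973 FPKM and 721 to 910 FPKM, with 5 of 8 lower. All 6 B cell markers were lower, with sums of 89.0 to 102 FPKM and 20.8 to 27.98 FPKM, and 2 of 6 erythroid markers were lower. The megakaryocyte markers summed to 29.7 to 110 FPKM in controls and 9.45 to 12.1 FPKM in cKO libraries, with 1 of 5 lower. In the other direction, the stromal and pericyte markers summed to 46.4 to 59.1 FPKM in controls and 98.5 to 98.8 FPKM in cKO libraries, with 3 of 5 tested higher and none lower. The endothelial markers summed to 1619 to 1734 FPKM in controls and 1559 to 1628 FPKM in cKO libraries. Of the 3 osteoclast genes tested, Ctsk was higher (0.623 ± 0.0784 to 3.03 ± 0.263 FPKM, SD, n = 2 each, log2 difference 1.31, adjusted p = 0.0176). The part of these cells in the values of the 8 genes was not tested.

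**Figure D4:**
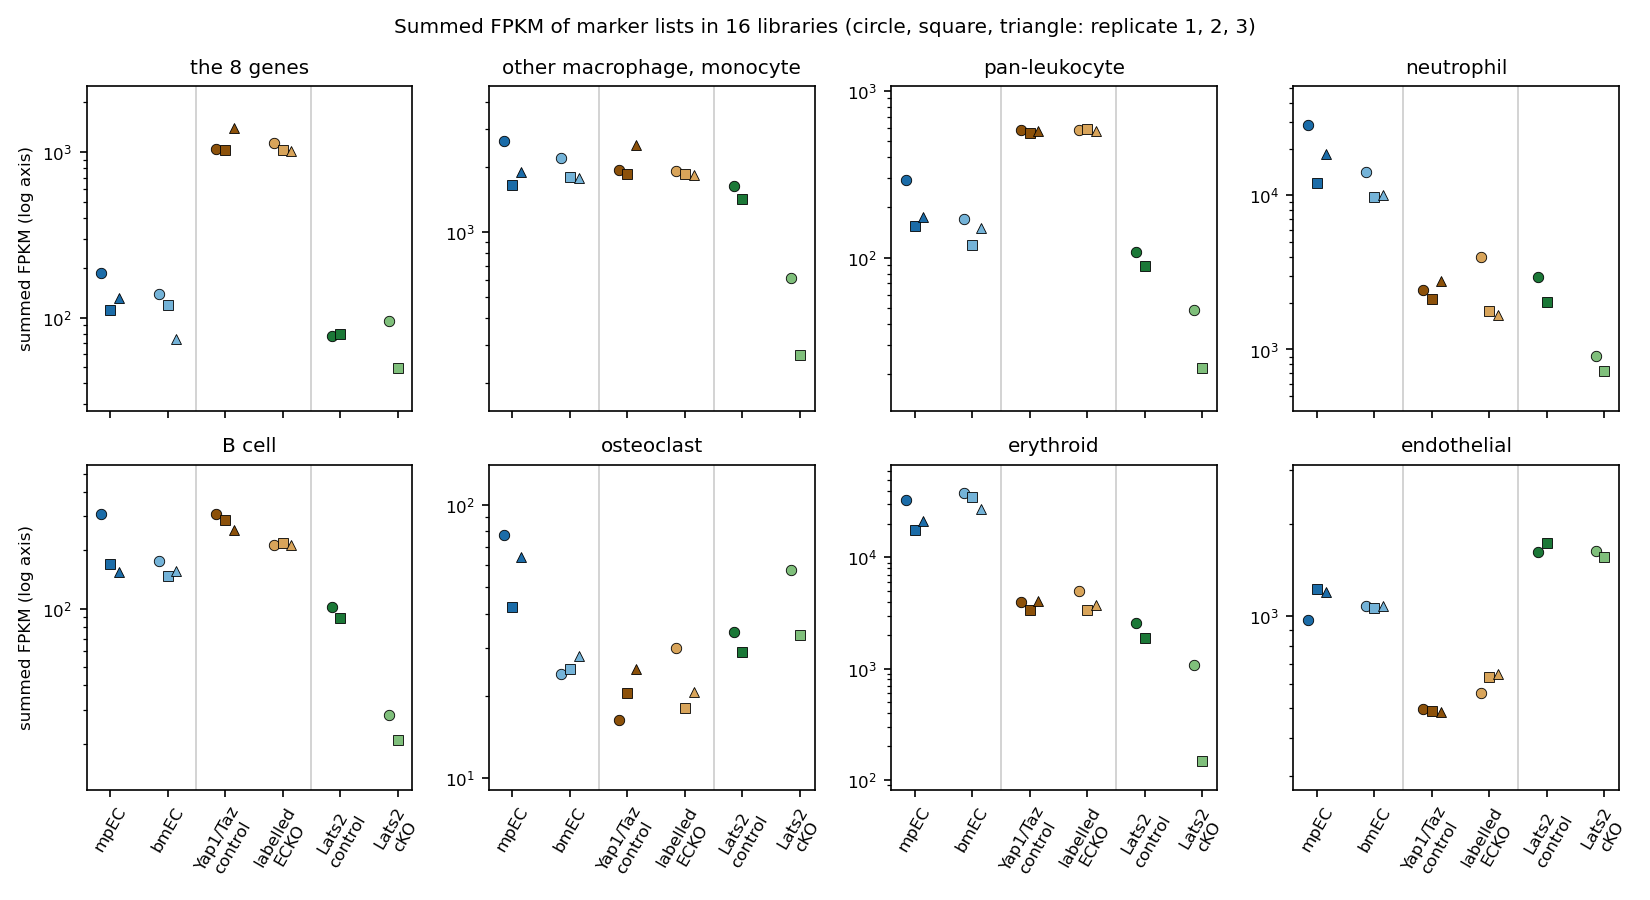
Summed FPKM on a log axis of the 8 genes and of 7 marker lists, with 1 point per library and grey lines between the separately normalized tables. In the Lats2 panel sections the leukocyte, neutrophil and B cell sums of both cKO libraries lie below both controls, while the sums of the 8 genes, 49.3 and 95.5 FPKM, lie on either side of the controls at 77.0 and 79.5 FPKM.

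The order of the 6 group means differed from gene to gene. For C1qa it ran from the Yap1/Taz controls and the libraries labelled ECKO (441 and 393 FPKM), which overlapped, to bmECs and mpECs (8.77 and 6.89 FPKM), which overlapped, and on to the Lats2 cKO libraries and Lats2 controls (5.24 and 1.19 FPKM), which did not overlap each other, while the cKO range reached into that of mpECs. For Cd14 it ran from mpECs (75.4 FPKM) over Lats2 controls (61.3), Lats2 cKO libraries (39.9), bmECs (37.6) and the libraries labelled ECKO (27.4) to the Yap1/Taz controls (22.8). Neighbours in this order overlapped, except the Lats2 controls and cKO libraries, which were separated by a narrow margin.

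Over the 16 libraries, each gene was set against the average pattern of the other 7, as deviations from the mean of its table in log2(FPKM + 1). The root mean square of the differences was lowest for Cd68 (0.19) and Fcgr1 (0.23) and highest for Cd14 (0.60), with the other 5 at 0.36 to 0.42. Among 9063 other genes whose mean reached 1 FPKM in every table, the 10 nearest to the average of all 8 genes were Akip1, Pdss1, Nap1l1, Ifi30, Kif4, Poc5, Nsmce2, 4930453N24Rik, Wdr70 and Atg5, at 0.19 to 0.21 on the same scale, where the median of all genes was 0.35. The SD of these 10 patterns over the 16 libraries was 0.13 to 0.29. The average pattern of the 8 genes itself ran from -0.49 in Lats2 control replicate 2 to 0.65 in Lats2 cKO replicate 1. A gene that varies little can lie near on this measure, so nearness does not show that a gene follows the 8. The 10 genes share libraries and depth with the 8 genes.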

How the data were processed

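The members and gene lists were chosen with earlier results of these data known. The authors mapped paired-end MiSeq reads of TruSeq Stranded Total RNA libraries to GRCm38 (mm10) with TopHat, obtained gene counts from HTSeq 0.6.1 and deposited FPKM values. The step from counts to FPKM, the gene lengths and the strand setting are not given in the sources used here.

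Each comparison was tested within its table by limma 3.58.1 in R 4.3.3 on log2(FPKM + 1), with empirical Bayes moderation and a mean-variance trend, over genes whose mean reached 1 FPKM. P-values were two-sided with Benjamini-Hochberg adjustment over all genes tested, and called genes had an adjusted p under 0.05. Fold changes on this scale understate changes of low genes. Reads were recovered as FPKM times GENCODE M21 exon length over a factor per library. Of values of up to 20 reads, 62.4% to 70.1% lay within 0.02 of a whole number. Each factor was chosen for a high share on these same values. The 4.0% that a factor fixed beforehand would give is therefore not the chance level of these shares. Symbols were found for 21375 of 21603 Ensembl identifiers, and 3 list genes by an older RefSeq symbol.

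Named genes were drawn from the 8 members, the genes of the lists of C1q, Csf1r, Fc receptor and Toll-like receptor partners, the 4 most abundant genes of each other list, the targeted genes and the 10 genes nearest in pattern. Not every gene of these lists is named, and 1 is not reported here. Alternatives were the pseudocount (0.1), the filter (none, or 5 FPKM), quantile and median-ratio scaling, no trend, a replicate block, limma-voom on recovered reads, a stricter threshold (adjusted p under 0.01 and a log2 difference over 0.5) and leaving out each library. Tables and plots were made in Python 3.11.15 (pandas 2.3.3, scipy 1.17.1, matplotlib 3.10.9).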

Additional observations from a re-analysis of the deposited data

How the results depend on the processing

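The number of the 8 genes called stayed at 0 in the Yap1/Taz comparison under every alternative tried. For bmECs against mpECs it was 1 with the replicate block (Cd14, adjusted p = 0.0252), 2 with limma-voom on recovered reads (Cd14 and Mpeg1, adjusted p = 0.0181 and 0.037) and 0 to 1 when a library was left out. For Lats2 it was 3 with the replicate block (C1qa, C1qb and C1qc, adjusted p = 0.0134, 0.0166 and 0.0185), 1 with limma-voom (Cd14, adjusted p = 0.048) and 0 to 1 when a library was left out. The replicate numbers do not pair the libraries by the labels. Deviations of libraries with the same number correlated at 0.31, 0.088 and 0.10 for mpECs and bmECs, at -0.18, -0.12 and -0.16 for Yap1/Taz, and at 0.065 for Lats2. With limma-voom the median of all genes was -0.20 for bmECs against mpECs, -0.06 for Yap1/Taz and -0.14 for Lats2, and it called 890 genes higher and 2414 lower in place of 1481 and 1201, and for Lats2 1273 and 2045 in place of 1468 and 1243.

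Of 279 log2 differences of single genes under the alternatives, 260 kept their sign and their side of the threshold, 10 passed it and 9 changed sign, all of these when a library was left out. The ranges over libraries left out were -0.29 to 0.029 for C1qb, -0.16 to 0.047 for C1qc, -0.078 to 0.24 for Cd68 and -0.27 to 0.18 for Fcgr1 in the Yap1/Taz comparison, and -0.75 to 0.61 for Csf1r and -0.44 to 1.13 for Cd68 in the Lats2 comparison. Counts over all genes moved more. They were 2682 and 1335 to 3304 over the other settings for bmECs against mpECs, 148 and 1 to 360 for Yap1/Taz, with 1 to 293 when a library was left out, and 2711 and 257 to 3318 for Lats2, with 0 to 2701. The causes were not tested. With 2 libraries a group and 4 to 29 recovered reads of C1qa, the Lats2 comparison is the least precise. When a Lats2 library was left out, the lone library of its group was assumed to vary like the other group.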
